A study of Homo sapiens with 18 samples.

Results

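The genes described here are 56 components of mitosis, the stage of the cell cycle in which duplicated chromosomes are condensed, attached to a spindle and pulled apart. They came from a list of mitotic regulators, chromosome structure proteins, mitotic kinases, checkpoint and kinetochore proteins, kinesin motors, spindle proteins and cytokinesis proteins. The list was chosen with earlier results of these data known, so counts over it are descriptions and not independent support. A gene was read from a probe set that maps to no other gene, the brightest on average where several qualified. All 56 were found, among 19775 genes with such a probe set, on Affymetrix U133 Plus 2.0 arrays. All 56 passed the filter on low values that left 12159 genes for testing.

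The study asked what the transcription factor ONECUT2 does to gene expression in 22Rv1 and LNCaP, both established human prostate cancer cell lines. The 18 arrays formed 6 groups of 3: 22Rv1 control, 22Rv1 with an ONECUT2 overexpression construct, 22Rv1 with a scramble shRNA, 22Rv1 labelled as an ONECUT2 knock-down by shRNA, LNCaP control and LNCaP with the overexpression construct. The construct carried the full-length cDNA in a lentiviral vector, and transduced cells were selected on puromycin as stable lines. The treatment label of both control groups reads vehicle, so the controls of the overexpression comparisons are not stated to carry an empty vector. The protocol names a pair of ONECUT2 shRNA clones, of which the array titles point to 1, so the shRNA group rests on 1 clone. The labels name no separate cultures behind the arrays of a group, and each p-value measures the spread between arrays, which may be technical.

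Mitosis runs on a transcription programme that peaks in G2 and M. The transcription factors FOXM1 and MYBL2 act with the MuvB complex at a short promoter element, the cell cycle genes homology region. It often lies beside CCAAT boxes bound by NF-Y. In cells that are not cycling the DREAM complex, which also contains MuvB, keeps these genes low through the same element. The products then act in order: cyclin B with CDK1 starts mitosis, condensins compact chromosomes, kinetochores built on the centromere capture microtubules, the spindle checkpoint holds the anaphase switch until all are attached, and the central spindle directs the final cut between daughter cells. In cancer cell lines these genes are widely used as a reading of how many cells are dividing.

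Array medians lay between 3.26 and 3.34 on the log2 scale. The arrays of a group correlated at 0.996 or more over all probe sets, except in LNCaP overexpression, where the first array correlated with the others at 0.975 and 0.981 and the others with each other at 0.995. ONECUT2 itself read 8.23, 8.15 and 8.25 in 22Rv1 control and 8.59, 8.81 and 8.85 with the construct, and 6.58, 6.53 and 6.72 in LNCaP control and 7.23, 7.31 and 7.28 with it. The rise was 0.54 ± 0.16 (adjusted p = 0.00702) in 22Rv1 and 0.66 ± 0.16 (adjusted p = 0.00153) in LNCaP. The arrays labelled scramble read 6.63, 6.71 and 7.08 and those labelled ONECUT2 shRNA read 8.46, 9.004 and 9.12, which goes against the labels (2.05 ± 0.16 higher, adjusted p = 7.32e-08). Both shRNA groups are therefore called by their labels, and no direction of an ONECUT2 effect is drawn from them. Of the luminal prostate markers, KLK2 averaged 9.50 in 22Rv1 control and 11.24 in LNCaP control and FOXA1 12.07 and 12.14, while TMPRSS2 was at 3.78 in 22Rv1 control and 9.19 in LNCaP control. None of the 6 leukocyte markers or 6 endothelial markers with a probe set passed the filter in these groups.

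Promoters are shown first, as a description of letters that many of the genes share. Their part in the changes was not tested. RefSeq promoters on GRCh38.p14, running from 250 bases before to 50 bases after the start of transcription, were matched for 48 of the 56 genes. BIRC5, RACGAP1, UBE2C, AURKA, FOXM1, TTK, TPX2 and PBK were not matched. The letters CCAAT, and TTTGAA or TTCGAA, the usual forms of the cell cycle genes homology region, were searched on both strands with overlaps allowed. CCAAT stood in 72.9% of the mitosis gene promoters against 34.7% of 22199 promoters of protein-coding genes, and TTTGAA or TTCGAA in 70.8% against 13.7%. Both kinds stood in 26 of 48 promoters (54.2%), against 5.48% of the protein-coding set. The shares were not particular to this set. Of 56 promoters of other mitotic genes, a list described below, 66.1% held CCAAT, 62.5% TTTGAA or TTCGAA and 50% both. A match describes letters and does not show binding.

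The first set has both kinds of letters and is drawn from several roles: the proliferation antigen MKI67, the kinases CDK1 and PLK1, the motors KIF11 and KIF23, the spindle bundler PRC1 and the abscission protein CEP55. Each is written 5′ to 3′ along the strand of its gene. Capitals mark CCAAT (or ATTGG on the other strand) and TTTGAA (or TTCAAA), and in MKI67 a pair of these overlaps by 1 base. The positions are chr10:128126428-128126536 minus strand for MKI67, chr10:60778155-60778200 plus for CDK1, chr16:23678801-23678880 plus for PLK1, chr10:92593062-92593122 plus for KIF11, chr15:69414270-69414314 plus for KIF23, chr15:90994536-90994603 minus for PRC1 and chr10:93496481-93496529 plus for CEP55.
MKI67: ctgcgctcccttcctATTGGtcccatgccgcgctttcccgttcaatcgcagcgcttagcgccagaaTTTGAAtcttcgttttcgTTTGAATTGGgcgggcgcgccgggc
CDK1: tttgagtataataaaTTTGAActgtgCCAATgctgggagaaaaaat
PLK1: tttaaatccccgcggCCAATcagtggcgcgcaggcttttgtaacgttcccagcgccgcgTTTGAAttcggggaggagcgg
KIF11: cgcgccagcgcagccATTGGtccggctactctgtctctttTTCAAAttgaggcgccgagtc
KIF23: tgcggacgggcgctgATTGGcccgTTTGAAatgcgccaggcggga
PRC1: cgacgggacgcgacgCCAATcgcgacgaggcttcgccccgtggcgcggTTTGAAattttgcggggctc
CEP55: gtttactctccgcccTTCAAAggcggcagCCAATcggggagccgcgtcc

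The second set has only 1 kind of letters. CCNA2 (chr4:121823920-121823954, minus strand) and CCNB1 (chr5:69167048-69167114, plus) hold CCAAT alone. NCAPG (chr4:17810929-17810964, plus), BUB1B (chr15:40161031-40161066, plus) and ANLN (chr7:36389821-36389861, plus) hold TTTGAA alone, in ANLN as adjoining copies on both strands.
CCNA2: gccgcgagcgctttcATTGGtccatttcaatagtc
CCNB1: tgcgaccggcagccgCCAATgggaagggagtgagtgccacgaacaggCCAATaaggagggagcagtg
NCAPG: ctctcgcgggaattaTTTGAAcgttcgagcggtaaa
BUB1B: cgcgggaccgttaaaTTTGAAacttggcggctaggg
ANLN: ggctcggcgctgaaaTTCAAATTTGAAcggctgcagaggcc

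The 4 promoter classes had similar falls in 22Rv1 and less similar ones in LNCaP. The median log2 change was -2.49 in 22Rv1 and -5.91 in LNCaP for the 26 genes with both kinds, -2.58 and -4.91 for the 9 with CCAAT alone, and -2.59 and -6.35 for the 8 with TTTGAA or TTCGAA alone. The 5 with neither, KIF2C, TACC3, CENPE, CDC25C and MELK, had medians of -2.42 and -3.90. These are descriptions of small classes and were not tested.

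With the ONECUT2 construct, the whole mitotic gene set was lower in both lines. In 22Rv1 all 56 genes fell, from 1.19 in log2 for CENPE to 3.57 for MKI67, with a median of -2.49. In LNCaP all 56 fell, with a median of -5.48 as fitted and -5.19 with values under 4 set to 4, which is near the lower limit of the arrays. With that floor the LNCaP falls ran from 1.21 for PLK1, as a bound, to 7.21 for ANLN. In each line the 3 overexpressing arrays lay below the 3 control arrays for every one of the 56 genes. Of all genes tested, 24.3% were called lower, 36.5% higher and 32% lay below in that way in 22Rv1. In LNCaP 28% were called lower, 34.1% higher and 26.2% lay below, with medians over all genes of 0.10 and 0.09. Each fitted fall was at least 1 in log2, a size that 8.98% of all genes reached in 22Rv1 and 11.8% in LNCaP. Leaving out any 1 of the 22Rv1 arrays compared left 54 called lower in 22Rv1, without CDK1 and MAD2L1. Calls are limma adjusted p-values under 0.05, and a value after ± beside a change is the standard error of the model, which pools the spread of all 6 groups. RNA from whole cultures cannot tell fewer dividing cells from less of each RNA per dividing cell.

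**Figure D1:**
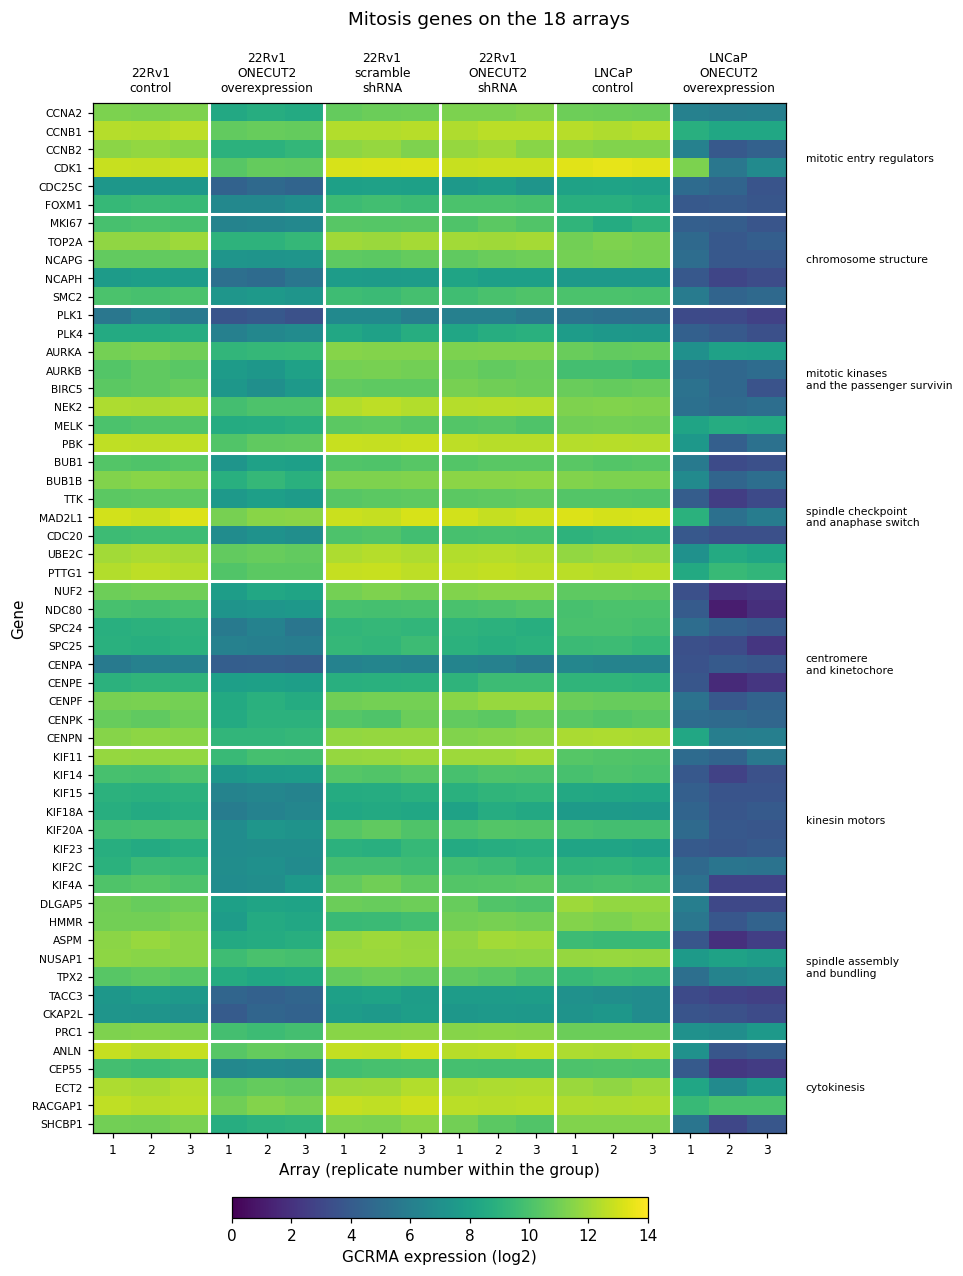
Log2 GCRMA expression of the 56 mitosis genes (rows, grouped by role) on the 18 arrays (columns, grouped by treatment), with colour for the level from 0 to 14. The overexpressing arrays are lower than their controls in every row, with medians of -2.49 in 22Rv1 and -5.48 in LNCaP.

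The regulators that start mitosis fell in both lines, with role medians of -2.59 in 22Rv1 and -4.83 in LNCaP over 6 genes. CDK1, the kinase that drives entry, read 12.84, 12.78 and 12.90 in 22Rv1 control and 10.35, 10.71 and 10.65 with the construct. In LNCaP it read 13.40, 13.47 and 13.34 in control and 11.24, 5.53 and 6.69 with the construct. Both lines were lower without overlap, but the LNCaP overexpressing arrays disagreed by more than for any other gene of the set (SD 3.02). The fall was 2.27 ± 0.91 (adjusted p = 0.0423) in 22Rv1 and 5.58 ± 0.91 (adjusted p = 7.85e-05) in LNCaP. In a fit of 22Rv1 arrays alone, added after the data were seen, the 22Rv1 fall had a standard error of 0.08 (adjusted p = 3.05e-12).

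CCNB1, the cyclin B that activates CDK1, read 12.41, 12.41 and 12.58 in 22Rv1 control and 10.61, 10.77 and 10.69 with the construct. The LNCaP arrays read 12.50, 12.36 and 12.52, and 8.83, 8.33 and 8.34. It had started at the same level in both lines and ended lower in LNCaP, with falls of 1.78 ± 0.11 (adjusted p = 1.82e-09) and 3.96 ± 0.11 (adjusted p = 6.37e-14). FOXM1, the transcription factor of the G2 and M genes, went from 9.40, 9.54 and 9.43 to 6.55, 6.52 and 6.91 in 22Rv1. In LNCaP it went from 8.84, 8.81 and 8.61 to 3.89, 4.01 and 3.75, around the level of the filter. Its falls were 2.80 ± 0.12 (adjusted p = 2.17e-11) and 4.87 ± 0.12 (adjusted p = 1.05e-14).

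Among the others of this role, CCNA2, the cyclin of S phase and G2, fell by 2.68 and 4.78, and CCNB2, a second B-type cyclin, by 2.51 and 6.60. CDC25C, the phosphatase that removes the inhibitory phosphates of CDK1, read 7.40, 7.44 and 7.38 in 22Rv1 control and 4.41, 4.80 and 4.52 with the construct. LNCaP readings were 8.07, 8.13 and 8.002, and 4.88, 4.51 and 3.66. The first LNCaP overexpressing array was thus above every 22Rv1 overexpressing array for this gene, and the falls were 2.83 ± 0.22 (adjusted p = 1.70e-08) and 3.72 ± 0.22 (adjusted p = 4.56e-10).

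The 5 chromosome structure genes had medians of -2.63 in 22Rv1 and -4.98 in LNCaP. MKI67, which coats mitotic chromosomes and is the Ki-67 antigen of pathology, read 9.93, 10.01 and 9.94 in 22Rv1 control and 6.27, 6.37 and 6.52 with the construct. The LNCaP arrays read 9.18, 8.61 and 9.09, and 4.26, 4.14 and 3.68. It was the largest fall of the set in 22Rv1 (3.57 ± 0.16, 11.9-fold, adjusted p = 3.42e-11) but less than the set's median in LNCaP (4.93 ± 0.16, adjusted p = 2.28e-13). NCAPG, a condensin subunit, dropped from 10.65, 10.65 and 10.63 to 7.31, 7.26 and 7.31 in 22Rv1 and from 11.05, 11.11 and 11.08 to 4.98, 3.86 and 3.85 in LNCaP. Its groups were tight except for the first LNCaP overexpressing array, which stayed higher, and its falls were 3.34 ± 0.21 (adjusted p = 1.55e-09) and 6.85 ± 0.21 (adjusted p = 1.36e-13). TOP2A, the topoisomerase that untangles sister chromatids, fell by 2.63 and 6.86, the condensin subunit NCAPH by 2.58 and at least 3.55, and the condensin ATPase SMC2 by 2.63 and 4.98.

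Readings under 4 in log2, the level the filter uses, are near the lower limit of the arrays. Where no array of the lower group rose above it, the size printed is the distance between 4 and the mean of the higher group, preceded by the words at least. This applied to PLK1 in 22Rv1 and to 13 of the 56 genes in LNCaP: NCAPH, PLK1, CDC20, NUF2, SPC25, CENPA, CENPE, KIF14, KIF23, ASPM, TACC3, CKAP2L and CEP55. Another 21 genes were under 4 on some of the LNCaP overexpressing arrays, and their falls average these readings as deposited. With values under 4 set to 4, the LNCaP fall of NDC80 was 5.97 and that of DLGAP5 7.15. Medians by role, promoter class and list also use the readings as deposited. With the floor the LNCaP medians by role were -4.77 for entry regulators, -4.98 for chromosome structure, -4.18 for kinases, -5.74 for the checkpoint, -5.51 for centromere and kinetochore, -4.76 for kinesins, -3.84 for spindle assembly and -6.13 for cytokinesis.

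The 8 genes of the kinase group, which includes survivin, had medians of -2.19 in 22Rv1 and -4.29 in LNCaP. PLK1, the polo kinase of centrosomes and kinetochores, was read by a dim probe set, at 5.56, 6.31 and 5.76 in 22Rv1 control and 3.65, 3.84 and 3.49 with the construct. The LNCaP readings were 5.31, 5.18 and 5.13, and 3.13, 3.10 and 2.71. Both overexpressing groups lay wholly under 4, so the falls were at least 1.88 (3.68-fold, adjusted p = 1.23e-07) and at least 1.21 (2.31-fold, adjusted p = 1.07e-07), and its full range could not be seen. AURKA, the kinase of spindle poles, read 11.05, 11.18 and 10.99 in 22Rv1 control and 9.23, 9.31 and 9.40 with the construct. The LNCaP arrays read 10.77, 10.62 and 10.67, and 7.05, 8.02 and 7.94. Here the first LNCaP overexpressing array was the lowest of its group, and the falls were 1.76 ± 0.17 (adjusted p = 2.55e-07) and 3.02 ± 0.17 (adjusted p = 3.22e-10).

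BIRC5, or survivin, which anchors AURKB at the centromere, went from 10.49, 10.57 and 10.76 to 7.40, 6.97 and 7.52 in 22Rv1. In LNCaP it went from 10.82, 10.70 and 10.81 to 5.28, 4.66 and 3.61. The LNCaP overexpressing arrays spread over more than 1 log2 unit, all far below control, with falls of 3.31 ± 0.27 (adjusted p = 3.30e-08) in 22Rv1 and 6.26 ± 0.27 (adjusted p = 9.40e-12) in LNCaP. AURKB itself fell by 2.73 and 4.91, PLK4, the kinase of centriole duplication, by 2.16 and 3.68, and NEK2, a centrosome kinase, by 2.29 and 6.29.

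MELK, a kinase of the same expression programme, was among the least changed genes in both lines. It read 10.06, 10.19 and 10.19 in 22Rv1 control and 8.62, 8.68 and 8.86 with the construct, and 10.94, 11.04 and 10.96 and then 8.18, 8.66 and 8.58 in LNCaP. The overexpressing arrays of both lines met at nearly the same level, after falls of 1.43 ± 0.12 (adjusted p = 3.27e-08) and 2.50 ± 0.12 (adjusted p = 2.37e-11). PBK, a kinase active in mitosis, fell by 2.17 in 22Rv1 and 6.80 in LNCaP.

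The spindle checkpoint and anaphase genes, 7 in all, had medians of -2.36 in 22Rv1 and -5.84 in LNCaP. BUB1B, the BUBR1 subunit that inhibits the anaphase-promoting complex, read 11.34, 11.49 and 11.36 in 22Rv1 control and 8.85, 9.33 and 8.91 with the construct. In LNCaP it read 11.34, 11.25 and 11.24, and 6.69, 4.56 and 5.05. Controls matched between the lines while the LNCaP overexpressing arrays ended well below those of 22Rv1, with falls of 2.36 ± 0.34 (adjusted p = 1.65e-05) and 5.84 ± 0.34 (adjusted p = 3.95e-10). MAD2L1, the checkpoint protein that binds CDC20, read 13.02, 12.87 and 13.24 in 22Rv1 control and 11.15, 11.53 and 11.54 with the construct. The LNCaP arrays read 13.28, 13.11 and 13.16, and 8.96, 5.16 and 5.86. As with CDK1, the first LNCaP overexpressing array kept much more of it, and the falls were 1.64 ± 0.62 (adjusted p = 0.0328) and 6.52 ± 0.62 (adjusted p = 2.98e-07). The 22Rv1-only fit gave a standard error of 0.12 for the 22Rv1 fall (adjusted p = 1.05e-08).

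UBE2C, the ubiquitin-conjugating enzyme of the anaphase-promoting complex, behaved the other way. It read 12.06, 12.22 and 12.12 in 22Rv1 control and 10.63, 10.73 and 10.65 with the construct. LNCaP readings were 11.74, 11.87 and 11.79, and 7.06, 8.58 and 8.21. The first LNCaP overexpressing array was the lowest, by more than 1 log2 unit, and the falls were 1.46 ± 0.24 (adjusted p = 5.59e-05) and 3.85 ± 0.24 (adjusted p = 7.35e-10). BUB1, a checkpoint kinase, fell by 2.51 and 6.20, TTK, the checkpoint's initiating kinase, by 2.77 and 6.95, CDC20, the activator of the anaphase-promoting complex, by 2.71 and at least 5.18, and PTTG1, or securin, which restrains separase, by 2.10 and 3.47.

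The centromere and kinetochore genes, 9 in all, had medians of -2.47 in 22Rv1 and -6.23 in LNCaP. NDC80 and NUF2 form the rod that grips microtubules. NDC80 read 9.95, 9.83 and 9.95 in 22Rv1 control and 7.26, 7.36 and 7.45 with the construct, and 9.90, 10.01 and 10.02 and then 4.01, 1.13 and 1.87 in LNCaP. The last pair are among the lowest readings of the set, and the falls were 2.56 ± 0.45 (adjusted p = 0.000128) and 7.64 ± 0.45 (adjusted p = 5.40e-10). NUF2 read 10.93, 10.99 and 10.99 and then 7.80, 8.42 and 8.16 in 22Rv1, and 10.53, 10.52 and 10.50 and then 3.41, 2.02 and 2.24 in LNCaP. All LNCaP overexpressing arrays were under 4, so this largest fitted fall of the set (7.96 ± 0.25, adjusted p = 1.45e-13) is a fall of at least 6.52, or 91.6-fold. The 22Rv1 fall was 2.85 ± 0.25 (adjusted p = 5.82e-08).

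CENPE, the kinesin that carries chromosomes to the spindle equator, read 9.02, 9.15 and 9.09 in 22Rv1 control and 7.93, 7.94 and 7.83 with the construct. The LNCaP readings were 9.16, 9.14 and 9.06, and 3.73, 1.66 and 2.19. The controls were level, 22Rv1 lost about 1 log2 unit, and LNCaP went under 4 on every array, with falls of 1.19 ± 0.33 (adjusted p = 0.00530) and at least 5.12 (34.8-fold, adjusted p = 5.39e-11). CENPA, the histone variant that marks the centromere, read 5.75, 6.13 and 6.09 and then 4.18, 4.23 and 4.11 in 22Rv1, and 6.41, 6.28 and 6.25 and then 3.54, 3.99 and 3.76 in LNCaP. Its probe set was dim throughout, and it fell by 1.81 ± 0.15 (adjusted p = 3.97e-08) and at least 2.31 (adjusted p = 4.92e-10).

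Of the others in this role, SPC24 and SPC25, which tether the NDC80 rod to the inner kinetochore, fell by 3.16 and 2.81 in 22Rv1 and by 5.53 and at least 5.51 in LNCaP. CENPF, a large protein of the outer kinetochore, fell by 2.47 and 6.23. CENPK and CENPN, of the inner centromere network, fell by 1.88 and 2.27 in 22Rv1 and by 5.57 and 5.43 in LNCaP.

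Kinesin motors, 8 genes, had medians of -2.47 in 22Rv1 and -4.88 in LNCaP. KIF11, the motor that pushes spindle poles apart, read 11.77, 11.72 and 11.74 in 22Rv1 control and 9.51, 9.87 and 9.81 with the construct. In LNCaP it read 10.32, 10.18 and 10.12, and 4.88, 4.51 and 5.63. The LNCaP fall began from a lower control and still went further, with 5.20 ± 0.19 (adjusted p = 1.00e-12) against 2.01 ± 0.19 (adjusted p = 1.58e-07). KIF4A, a chromosome-arm motor, fell by 3.07 and 6.22, KIF20A, a motor of the central spindle, by 2.70 and 5.71, and KIF15, a second spindle-pole motor, by 2.65 and 4.56. KIF18A, which dampens chromosome movements, fell by 2.51 and 3.52, KIF2C, which depolymerises microtubules at centromeres, by 2.42 and 3.90, KIF14, a motor of cytokinesis, by 2.36 and at least 5.98, and KIF23, a motor of the central spindle, by 1.86 and at least 4.11.

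Spindle assembly and bundling genes, 8 in all, had medians of -2.83 in 22Rv1 and -4.03 in LNCaP. TPX2, which activates AURKA and nucleates microtubules, read 10.35, 10.51 and 10.32 in 22Rv1 control and 8.59, 8.33 and 8.52 with the construct. LNCaP readings were 9.49, 9.67 and 9.53, and 5.12, 6.24 and 6.49. The first LNCaP overexpressing array was again the lowest, as for AURKA, and the falls were 1.92 ± 0.24 (adjusted p = 3.84e-06) and 3.61 ± 0.24 (adjusted p = 1.91e-09). DLGAP5, a spindle assembly protein, read 10.95, 10.75 and 10.93 and then 7.96, 8.16 and 8.12 in 22Rv1, and 11.96, 11.74 and 11.74 and then 5.98, 3.06 and 3.04 in LNCaP. Here the first array was the highest, and the falls were 2.80 ± 0.52 (adjusted p = 0.000230) and 7.79 ± 0.52 (adjusted p = 3.15e-09).

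CKAP2L, a mitotic spindle protein, read 7.28, 7.22 and 7.09 and then 3.995, 4.55 and 4.42 in 22Rv1, and 7.19, 7.42 and 6.82 and then 3.61, 3.46 and 3.22 in LNCaP. Both lines ended near or under 4, with falls of 2.88 ± 0.17 (adjusted p = 5.18e-10) and at least 3.14 (adjusted p = 1.19e-11). TACC3, which stabilises spindle fibres, fell by 3.04 and at least 2.94, HMMR, a spindle-pole protein, by 2.87 and 6.80, and ASPM, another pole protein, by 3.02 and at least 5.51. NUSAP1, a microtubule bundler, fell by 1.74 and 3.98, and PRC1, which bundles the central spindle, by 1.56 and 3.70.

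The 5 cytokinesis genes split in LNCaP. Their medians were -2.12 in 22Rv1 and -7.20 in LNCaP, the last being the fitted value of CEP55, which was under 4 on all LNCaP overexpressing arrays. ANLN, the scaffold of the contractile ring, read 12.76, 12.50 and 12.74 in 22Rv1 control and 10.37, 10.67 and 10.59 with the construct, and 12.27, 12.22 and 12.31 and then 7.10, 3.76 and 4.07 in LNCaP. The first LNCaP overexpressing array lay about 3 log2 units above the others, and the falls were 2.12 ± 0.57 (adjusted p = 0.00439) and 7.29 ± 0.57 (adjusted p = 2.98e-08). SHCBP1, a partner of the central spindle, read 11.02, 10.99 and 11.21 and then 8.72, 8.97 and 9.10 in 22Rv1, and 11.33, 11.34 and 11.36 and then 5.42, 2.98 and 3.75 in LNCaP. It fell by 2.14 ± 0.40 (adjusted p = 0.000223) and 7.30 ± 0.40 (adjusted p = 2.20e-10), again with the first LNCaP array highest.

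CEP55, the midbody protein that recruits the abscission machinery, read 9.83, 9.66 and 9.82 and then 6.51, 6.73 and 6.57 in 22Rv1. The LNCaP arrays read 10.11, 10.16 and 10.11, and 3.98, 2.30 and 2.50. LNCaP control arrays lay above those of 22Rv1 without overlap, by 0.36, which was not called. The falls were 3.16 ± 0.28 (adjusted p = 7.86e-08) and at least 6.13 (69.8-fold, adjusted p = 2.41e-12). RACGAP1, of the centralspindlin complex, read 12.65, 12.52 and 12.57 and then 10.96, 11.42 and 11.18 in 22Rv1, and 12.35, 12.26 and 12.32 and then 9.41, 9.98 and 9.98 in LNCaP. It fell least of this role in both lines, with falls of 1.40 ± 0.13 (adjusted p = 1.81e-07) and 2.52 ± 0.13 (adjusted p = 1.11e-10). ECT2, the exchange factor that activates RhoA at the cleavage site, fell by 1.72 and 4.33.

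Some measures of RNA quality and of other cell types moved with the construct as well. The beta-actin control probe sets gave a difference of 3' minus 5' signal of 8.06 ± 0.70 (SD, n = 3) in 22Rv1 overexpression and 4.11 ± 0.41 in 22Rv1 control, and 2.85 ± 0.56 and 2.94 ± 0.25 in the LNCaP groups. For GAPDH the 22Rv1 values were -0.43 ± 0.13 and -0.70 ± 0.09. Their part in the falls was not tested. Of 8 stromal markers, COL1A1 averaged 9.76 with the construct and 7.64 without in 22Rv1, and 11.44 and 7.81 in LNCaP, while COL1A2, DCN, PDGFRB and THY1 averaged under 4 in all 6 groups. Of those 8, 4 were tested, with 2 lower and 1 higher in each line. Their fitted changes ran from -3.24 to 2.12 in 22Rv1 and from -0.55 to 3.64 in LNCaP, so the stromal markers did not move together. Of 7 luminal markers tested, 4 were lower and 1 higher in each line. Their fitted changes ran from -3.53 to 0.73 in 22Rv1 (median -0.82) and from -6.94 to 1.53 in LNCaP (median -3.02). The part of these markers in the results was not tested. Of all genes tested 24.3% were lower and 36.5% higher in 22Rv1, and 28% and 34.1% in LNCaP.

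The LNCaP overexpression arrays gave the same direction on each array but not the same depth. The median change from the LNCaP control mean was -4.71 on the first, -5.66 on the second and -5.78 on the third, and every gene was below the control mean on each. With values under 4 set to 4 the medians were -4.71, -5.50 and -5.21. The counts of genes under 4 were 14, 29 and 29. On the first array 54 of 56 genes read below the 22Rv1 overexpression mean, CDK1 and CDC25C being the exceptions, and on the others all 56 did, though PLK1 was under 4 in both groups. The median SD of the genes was 0.58 in this group, against 0.29 over all genes tested, and 0.07 to 0.17 in the other 5 groups.

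The first array stood apart in both directions. It was the highest of the LNCaP overexpressing arrays for 42 genes and the lowest for 9: UBE2C, TPX2, AURKA, PTTG1, KIF2C, RACGAP1, MELK, NUSAP1 and CENPA. With values under 4 set to 4 it was the highest for 31 and the lowest for 8, CENPA dropping out, and 13 genes were at the floor on all 3 arrays. Its excess over the mean of the others was 5.13 for CDK1, 3.45 for MAD2L1, 3.18 for ANLN, 2.93 for DLGAP5 and 2.76 for PBK. The largest shortfalls were -1.33 for UBE2C and -1.24 for TPX2. The high genes thus included the CDK1 kinase, checkpoint and ring genes, and the low ones the anaphase enzyme UBE2C with AURKA and its activator. These groups were read from the values themselves and carry no test.

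Without the first array the LNCaP fall was called for all 56 genes, with a median of -5.72. CDK1 then fell by 7.29 ± 0.20 (adjusted p = 1.78e-15), MAD2L1 by 7.67 ± 0.17 (adjusted p = 7.79e-18) and ANLN by 8.35 ± 0.12 (adjusted p = 7.45e-20). These standard errors and p-values pool the spread of all groups. They do not measure the spread of the remaining LNCaP overexpressing arrays, which read 5.53 and 6.69 for CDK1. The third array differed in another way. Of 63 genes over 9 on every 22Rv1 overexpressing array and under 4 on every LNCaP control array, 31, 29 and 6 stayed under 4 on the 3 LNCaP overexpressing arrays in order. Without the third array all 56 mitosis genes were again called lower, with a median of -5.16.

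**Figure D2:**
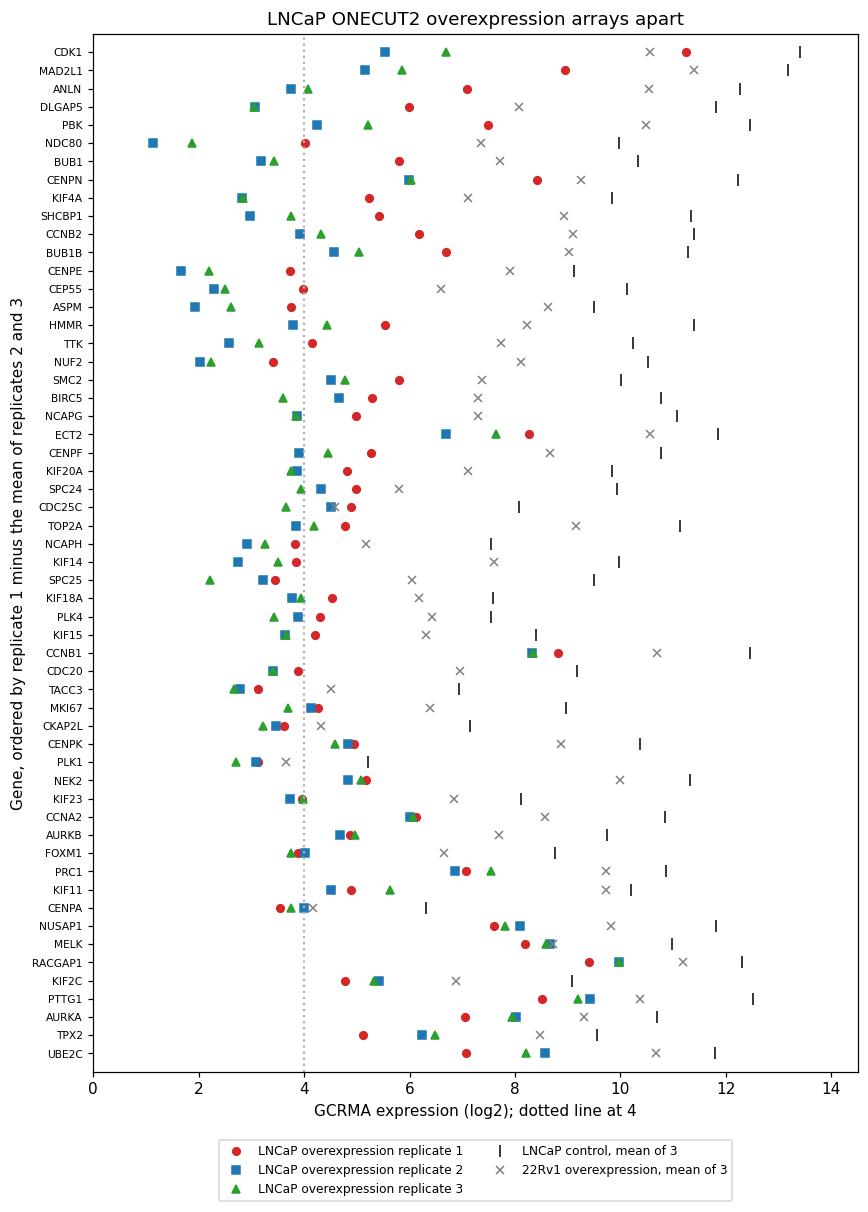
Log2 expression of each mitosis gene (rows, ordered by the first array minus the mean of the others) on the LNCaP overexpressing arrays (circles, squares and triangles), with the means of 3 LNCaP control arrays (bars) and 3 22Rv1 overexpressing arrays (crosses). CDK1, at the top, read 11.24 on the first array and 5.53 and 6.69 on the others, UBE2C, at the bottom, had the first array lowest, and all symbols lie left of the control bars.

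The fall was deeper in LNCaP than in 22Rv1 for nearly all of the genes. The difference between the changes, LNCaP minus 22Rv1, was called lower for 55 of 56 genes and higher for none, against 26.6% and 18.1% of all genes tested, with a median of -2.93 and -0.10 over all genes. By role the median difference ran from -1.85 for the kinases to -4.03 for cytokinesis, with -3.75 for centromere and kinetochore and -3.48 for the checkpoint genes. The largest fitted differences were -5.40 ± 0.47 for CENPE (adjusted p = 2.03e-07), -5.16 ± 0.80 for ANLN (adjusted p = 0.000109), -5.16 ± 0.56 for SHCBP1 (adjusted p = 2.79e-06) and -5.12 ± 0.35 for NUF2 (adjusted p = 1.54e-08). CENPE and NUF2 were under 4 on all LNCaP overexpressing arrays and the others on some, so this order rests in part on readings near the lower limit. With values under 4 set to 4 the differences were -3.93 for CENPE, -5.08 for ANLN, -4.73 for SHCBP1 and -3.67 for NUF2, and by role the medians ran from -1.74 for the kinases to -3.42 for centromere and kinetochore, with -2.96 for cytokinesis.

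PLK1 was not called (-0.01 ± 0.29, adjusted p = 0.985), and both of its overexpressing groups were under 4. The smallest called differences were -0.74 ± 0.22 for CENPA (adjusted p = 0.0109), -0.84 ± 0.23 for CKAP2L (adjusted p = 0.00844) and -0.89 ± 0.31 for CDC25C (adjusted p = 0.0290). Like PLK1, these are genes with dim probe sets or with overexpressing levels near 4. With every value under 4 set to 4, 53 genes were lower, with a median of -2.48, and PLK1 alone was higher (0.67, adjusted p = 0.0469), a value set by its control arrays, since all its overexpressing arrays were at the floor. CDK1 (-3.31 ± 1.29, adjusted p = 0.0481) was near the threshold, and its call was lost under 15 alternatives. That of CDC25C was lost under 9, of CKAP2L under 3, of CENPA under 2 and of ASPM under 1, the mean of its probe sets (-0.25, adjusted p = 0.377).

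Across the 56 genes the changes in both lines, which share no array, went together loosely, with a Pearson r of 0.42 and a Spearman rho of 0.41, against 0.60 and 0.58 over all 12159 genes. The genes share arrays and are not independent, so this is a description. MKI67 fell most in 22Rv1 and less than the median in LNCaP, and CENPE fell least in 22Rv1.

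**Figure D3:**
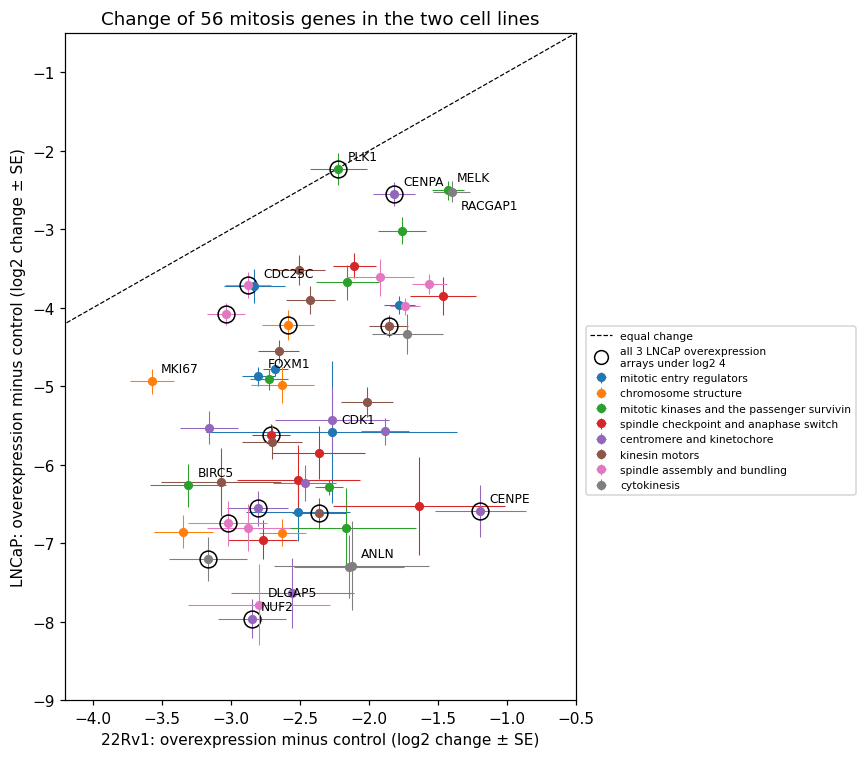
Log2 change with the ONECUT2 construct in 22Rv1 (x axis) and LNCaP (y axis) for the 56 mitosis genes, coloured by role, with standard errors of the model as bars and circles around genes under 4 on all LNCaP overexpressing arrays. Nearly all points lie below the dashed line of equal change. The y values of the circled genes come from readings under 4, so their distance from the line is not measured.

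The shRNA groups of 22Rv1 left the mitotic set nearly level. Between arrays labelled ONECUT2 shRNA and arrays labelled scramble, 4 genes were called higher and none lower, with a median of -0.07. Of all genes tested 13.4% were called higher and 16.1% lower. The fit of 22Rv1 arrays alone called 12 lower and 8 higher, where 26.1% of all genes were lower and 20.9% higher. The changes ran from -0.74 for SHCBP1 to 1.45 for HMMR.

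HMMR, the spindle-pole protein, read 9.47, 9.53 and 9.75 on the scramble arrays, 10.996, 11.11 and 10.998 on those labelled ONECUT2 shRNA and 11.01, 11.03 and 11.23 in 22Rv1 control. It was low on the scramble arrays alone, 1.45 ± 0.30 below the shRNA arrays (adjusted p = 0.00164). CCNA2 read 10.71, 10.85 and 10.90 on the scramble arrays, 11.24, 11.25 and 11.38 on the shRNA arrays and 11.23, 11.20 and 11.30 in control. The same arrays were low, by 0.47 ± 0.09 (adjusted p = 0.00105).

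CENPF read 10.98, 11.06 and 11.05 on the scramble arrays, 11.49, 11.85 and 11.82 on the shRNA arrays and 11.13, 11.18 and 11.10 in control, so here the shRNA arrays were the high ones (0.69 ± 0.23, adjusted p = 0.0291). FOXM1 read 9.61, 9.74 and 9.60, 10.02, 10.06 and 9.93, and 9.40, 9.54 and 9.43 in the same order. Its shRNA arrays lay above both other groups, by 0.35 ± 0.12 over scramble (adjusted p = 0.0351) and 0.54 ± 0.12 over control (adjusted p = 0.0155). The genes that moved least between the shRNA groups were NEK2 (-0.01), KIF18A (0.01), MAD2L1 (-0.03) and UBE2C (0.04).

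SHCBP1 read 11.25, 11.16 and 11.51 on the scramble arrays and 10.995, 10.50 and 10.20 on the shRNA arrays, which did not overlap, and CENPE read 8.86, 8.89 and 8.94, and 9.13, 9.60 and 9.60. Neither difference passed the test with all arrays (-0.74 ± 0.40, adjusted p = 0.184, and 0.54 ± 0.33, adjusted p = 0.243). In the 22Rv1-only fit SHCBP1 was called lower and CENPE higher.

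Against 22Rv1 control, the scramble arrays had 2 genes lower and 3 higher, where 9.4% and 12.5% of all genes were called. HMMR fell by 1.51 ± 0.30 (adjusted p = 0.00184) and CCNA2 by 0.42 ± 0.09 (adjusted p = 0.00327). AURKB read 11.10, 11.16 and 11.03 on the scramble arrays and 10.27, 10.58 and 10.41 in control, without overlap (0.68 ± 0.14 higher, adjusted p = 0.00208). CKAP2L (0.52 ± 0.17, adjusted p = 0.0331) and TACC3 (0.42 ± 0.14, adjusted p = 0.0415) were the other rises. In the fit of 22Rv1 arrays alone 22 genes were higher and 3 lower, where 23.8% and 16.1% of all genes were, with AURKB, KIF20A (0.54), KIF4A (0.54) and PLK1 (0.55) among the higher. With all arrays, CDC25C (0.56 ± 0.22, adjusted p = 0.0853) and PLK1 (0.55 ± 0.21, adjusted p = 0.0684) were not called. NDC80 (-0.00), BUB1 (0.02), BIRC5 (-0.03) and CCNB2 (-0.03) hardly differed.

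The arrays labelled ONECUT2 shRNA had FOXM1 alone called against 22Rv1 control, where 2.35% of genes were higher and 2.11% lower. The 22Rv1-only fit called 9 higher and 2 lower, where 9.47% and 7.93% of all genes were. CENPF (0.59 ± 0.23, adjusted p = 0.170), DLGAP5 (-0.55 ± 0.52, adjusted p = 0.667) and SHCBP1 (-0.51 ± 0.40, adjusted p = 0.587) were of like size and not called in the fit of all arrays. CDK1, SPC24, KIF23 and CCNB1 differed by 0.02 or less. These 3 comparisons share groups of arrays, so their calls are not independent of each other.

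**Figure D4:**
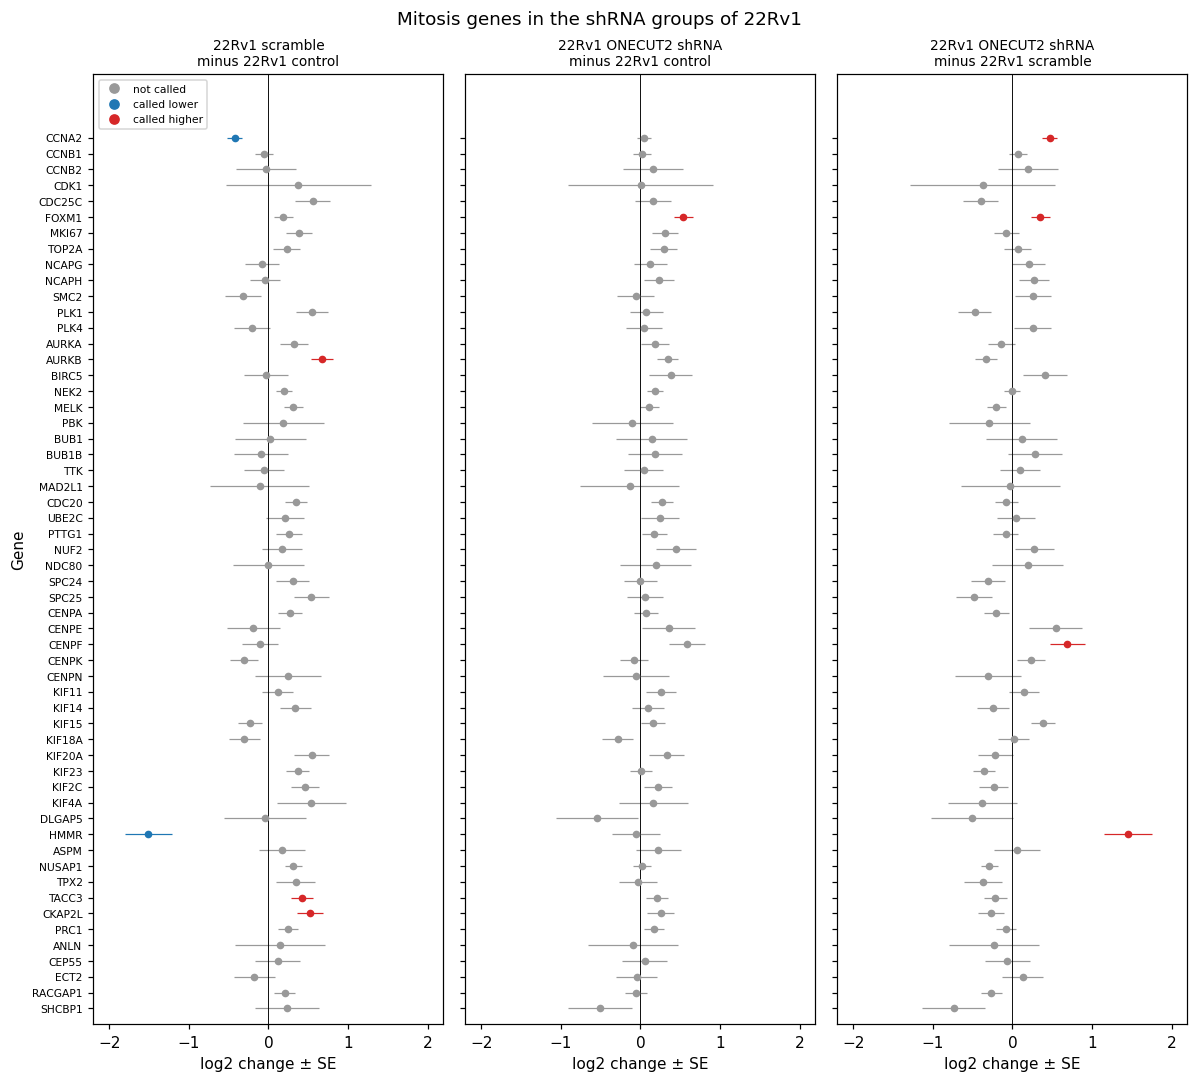
Log2 change ± standard error of each mitosis gene (rows) between the shRNA groups and control in 22Rv1, with genes called lower in blue and higher in red. Nearly all points lie within 1 of the zero line, and HMMR stands out at -1.51 for scramble against control and 1.45 for shRNA against scramble.

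Before any construct some of the genes were called different between the lines, with standard errors that pool the spread of all 6 groups. LNCaP control was called lower than 22Rv1 control for 17 genes and higher for 4, where 33.5% and 30.2% of all genes were called, with a median of -0.21. ASPM read 9.59, 9.46 and 9.47 in LNCaP and 11.59, 11.83 and 11.55 in 22Rv1, a difference of -2.15 ± 0.29 (adjusted p = 6.09e-06). KIF11 (-1.54 ± 0.19, adjusted p = 2.67e-06), KIF18A (-1.10 ± 0.19, adjusted p = 9.07e-05) and PLK4 (-1.03 ± 0.23, adjusted p = 0.000831) followed. The genes called higher in LNCaP were SPC24 (0.99), MELK (0.83), CDC25C (0.66) and SPC25 (0.66), so both SPC subunits were among the 4. DLGAP5 averaged 11.81 in LNCaP control and 10.87 in 22Rv1 control, and CENPN 12.23 and 11.52. Both were higher in LNCaP without overlap and were not called. SMC2, CCNB1, KIF14 and CENPE differed by 0.03 or less.

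Other probe sets of the same genes were also lower with the construct. Of 47 further probe sets, 32 passed the filter, and all 32 were called lower in 22Rv1 and in LNCaP. A probe set could pass through any groups where it was high, and those that failed were not tested. This count is therefore a description and not independent support. For the difference between lines 25 were lower and 3 higher. Shares over all probe sets were not counted. Over all genes tested, 24.3% were called lower in 22Rv1 and 28% in LNCaP. For the difference, 26.6% of genes were lower and 18.1% higher. MKI67 had 4 probe sets, with falls in 22Rv1 of 1.63 to 3.57 and in LNCaP of 2.11 to 4.93, and 1 of them gave a smaller fall in LNCaP (difference 0.95 ± 0.20, adjusted p = 0.00105). The other 2 that were higher were of ASPM. They fell by 0.61 and 1.15 in LNCaP where the gene's chosen probe set fell by 6.74, and their LNCaP control means were 3.01 and 4.11.

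Probe sets disagreed most on the scramble arrays. A second TOP2A probe set read 6.14, 7.06 and 6.08 there, 8.16, 8.50 and 8.75 in 22Rv1 control and 7.96, 7.53 and 8.30 on the shRNA arrays. It was lower than control by 2.04 (adjusted p = 4.32e-05), whereas the chosen TOP2A probe set was 0.23 higher. An ASPM probe set read 3.02, 2.97 and 2.53 on the scramble arrays, 4.91, 5.9996 and 5.93 in control and 3.92, 3.36 and 3.87 on the shRNA arrays, while the chosen one was 0.17 higher than control. The 2 HMMR probe sets did agree, falling by 1.51 and 1.48 on the scramble arrays.

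Lists of other mitotic genes, also chosen with earlier results of these data known, were read beside the set. Of 72 further genes of the mitotic programme, 68 were tested. In 22Rv1 overexpression 64 were lower and 1 higher, with a median of -1.73, where 24.3% and 36.5% of all genes were. In LNCaP 63 were lower and 1 higher, with a median of -3.04, where 28% and 34.1% of all genes were. The largest falls in 22Rv1 were SKA1, of the kinetochore's microtubule coupler (3.40), HJURP, the chaperone of CENPA (3.15), GTSE1 (3.09) and DEPDC1 (3.09). In LNCaP they were DEPDC1 (6.34), KNL1, the kinetochore scaffold of the checkpoint (5.94), DEPDC1B (5.61) and CDCA2 (at least 4.83). CENPT, of the inner centromere, was the exception in both lines, higher by 0.41 ± 0.15 (adjusted p = 0.0226) and 0.35 ± 0.15 (adjusted p = 0.0487).

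The difference between lines was lower for 49 and higher for 3 of these 68 genes, against 26.6% and 18.1% of all genes tested. KNL1 (-3.51), DEPDC1 (-3.26), DEPDC1B (-3.09) and CENPU (-2.90) had the deepest. MAD1L1, the checkpoint partner of MAD2L1, was 1.42 higher, CKAP5, a microtubule polymerase, 0.68 and SKA2 0.54. Between the shRNA groups 9 were lower and 2 higher, against 16.1% and 13.4% of all genes tested. The lowest were OIP5 (-0.62), CENPH (-0.61), CENPQ (-0.54) and STIL (-0.52), and the higher were ESPL1, which is separase (0.53), and MIS18A (0.41).

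Machinery that mitosis uses but that cells keep through the cycle moved in both directions. Of 25 tested subunits of the anaphase-promoting complex, cohesin and the gamma-tubulin ring, 8 were lower and 7 higher in 22Rv1 (median -0.06), where 24.3% and 36.5% of all genes were. In LNCaP 13 were lower and 6 higher (median -0.30), where 28% and 34.1% of all genes were. TUBGCP5 (-1.44), SMC1A (-0.72), ANAPC15 (-0.63) and TUBGCP4 (-0.61) were the lowest in 22Rv1, and TUBGCP6 (at least 0.30), CDC16 (0.56), ANAPC7 (0.46) and CDC23 (0.43) the highest. In LNCaP TUBGCP3 (-1.58), NEDD1 (-1.38), SMC3 (-0.91) and TUBG1 (-0.80) were the lowest, and ANAPC7 (0.90), CDC26 (0.71), TUBGCP6 (0.57) and CDC16 (0.40) the highest. The line difference was lower for 7, led by TUBGCP3 (-1.44), NEDD1 (-0.82), ANAPC4 (-0.76) and ANAPC5 (-0.56), and higher for CDC26 (1.27), TUBGCP4 (0.97), ANAPC11 (0.47) and ANAPC7 (0.44). Over all genes tested it was lower for 26.6% and higher for 18.1%. Between the shRNA groups 5 were lower, ANAPC10 (-0.56), ANAPC7 (-0.51), CDC16 (-0.49) and TUBGCP6 (at least 0.10 lower) among them, and none higher. The shares of all genes tested were 16.1% lower and 13.4% higher. Of the 25 promoters of this list 36% held CCAAT, 16% TTTGAA or TTCGAA, and 0% both.

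The factors that bind mitotic promoters moved in both directions. Of 13 tested, 5 were lower and 3 higher in 22Rv1, where 24.3% and 36.5% of all genes were. In LNCaP 7 were lower and 2 higher, where 28% and 34.1% of all genes were. MYBL2 fell by at least 1.504 in 22Rv1 (adjusted p = 4.63e-10) and at least 2.05 in LNCaP (adjusted p = 2.89e-12). LIN9, a MuvB subunit, fell by 2.00 and 2.64, whereas LIN37, the MuvB subunit needed for repression by DREAM, rose by 1.86 (adjusted p = 1.05e-05) and 1.40 (adjusted p = 0.000184). Of the NF-Y subunits, NFYB fell by 1.30 in 22Rv1 (adjusted p = 0.0126) and was 0.32 higher in LNCaP (adjusted p = 0.518), and NFYC rose by 0.89 in 22Rv1 (adjusted p = 0.000106). LIN54, the DNA-binding subunit of MuvB, fell by 0.83 in 22Rv1, RBL2, or p130, rose by 0.45 there, and LIN52 rose by 0.35 in LNCaP. RBL1, or p107, fell by 1.69 in LNCaP and TFDP1, the partner of E2F factors, by 1.30.

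The line difference was lower for 5 of these factors and higher for 1, against 26.6% and 18.1% of all genes tested. RBL1 (-1.30), RBL2 (-1.15) and TFDP1 (-1.004) were among the lower and NFYB (1.62) was the higher. Between the shRNA groups MYBL2 (0.79, adjusted p = 0.000309) and LIN52 (0.63, adjusted p = 0.0001) were higher and LIN37 (-0.92, adjusted p = 0.0129) and RBL2 (-0.35, adjusted p = 0.0205) lower. Of all genes tested 13.4% were higher and 16.1% lower between these groups.

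**Figure D5:**
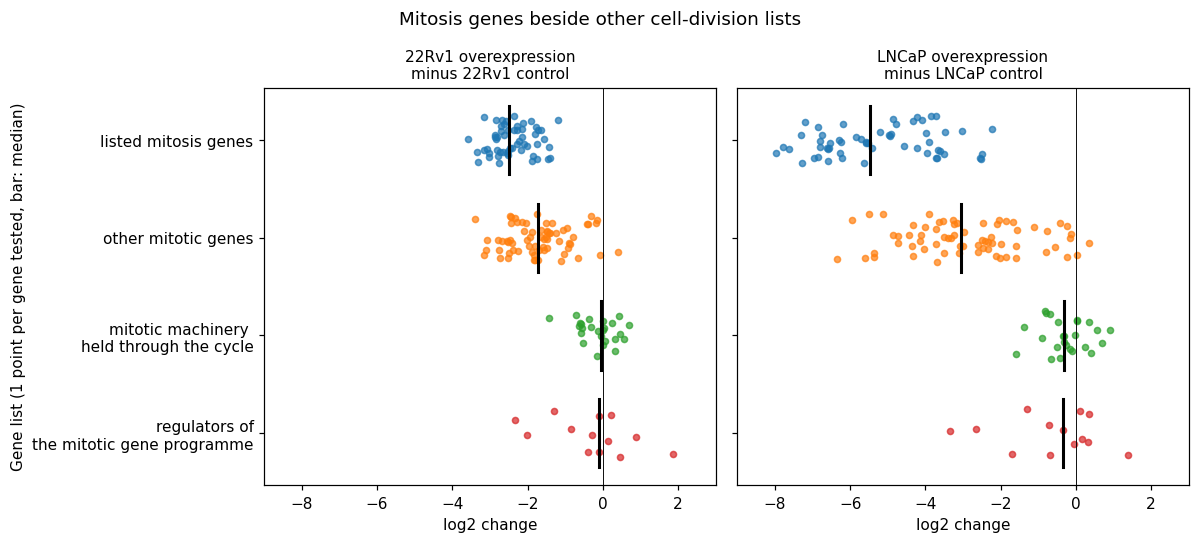
Log2 change with the ONECUT2 construct in 22Rv1 (left) and LNCaP (right) for 4 gene lists, with 1 point for each gene tested and a bar at the median. The 56 mitosis genes have medians of -2.49 and -5.48, the other mitotic genes -1.73 and -3.04, and the machinery held through the cycle -0.06 and -0.30.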

How the data were processed

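RNA of 18 samples was measured on Affymetrix U133 Plus 2.0 arrays, 6 groups of 3. The deposited values are log2 expression per probe set, made by the authors with GCRMA per the submitters' processing notes. The GCRMA version is not stated in the labels, nor is joint normalization of the 18 arrays. Of 54675 probe sets, 62 controls were left out, 41097 had 1 gene symbol, 1801 several and 11715 none. Each gene was read from its brightest probe set with 1 symbol (19775 genes), and 12159 genes over log2 4 on at least 3 arrays were tested with limma 3.58.1 (R 4.3.3) on all 6 groups, with robust moderated variances with a mean trend and Benjamini-Hochberg adjustment over all genes tested. The procedure was tested on simulated data.

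The 56 members and the gene lists were chosen with earlier results of these data known. All members are described by role, with every array for a fixed group of central genes and for the largest, smallest and uncalled changes, and other lists by their 4 largest changes each way. A few further members were shown on every array after their values were seen. Same-numbered arrays of compared groups did not deviate together in every pair (r from -0.22 to 0.43), so the numbers were not used as pairs. The number of arrays limits precision.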

Additional observations from a re-analysis of the deposited data

Results flagged for a closer look

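The change with the ONECUT2 construct differed between the lines by a contrast of both changes in limma. All 56 mitosis genes had a negative fitted difference, LNCaP minus 22Rv1, with a median of -2.93. The difference was called lower for 55 of them and higher for none. Of all genes tested 26.6% were called lower and 18.1% higher. The largest fitted differences were those of CENPE, the chromosome-carrying kinesin (-5.40), ANLN, the ring scaffold (-5.16), SHCBP1, of the central spindle (-5.16), and NUF2, of the microtubule-gripping rod (-5.12). All of the LNCaP overexpressing arrays read CENPE and NUF2 under 4, so their differences carry readings below the filter level. With values under 4 set to 4 the differences were -3.93 for CENPE, -5.08 for ANLN, -4.73 for SHCBP1 and -3.67 for NUF2. All 4 read highest on the first LNCaP overexpressing array.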

How the results depend on the processing

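All 56 genes were lower in LNCaP overexpression under every alternative run. In 22Rv1 overexpression 54 to 56 were, with CDK1 and MAD2L1 lost without the filter and without any 1 of the 22Rv1 arrays compared (adjusted p 0.0532 to 0.0957). The line difference was lower for 52 to 55. The LNCaP median was -4.22 with probe sets averaged, -5.19 with values under 4 set to 4, and -5.72 to -5.00 leaving out 1 array. The median line difference was -2.07 with probe sets averaged, -2.62 after a second quantile normalization and -2.48 with the floor, which also made 1 gene higher, and -3.10 to -2.71 leaving out 1 array.

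Counts between 22Rv1 groups depended on the fit. The shares of all genes did so too. For shRNA against scramble, 16.1% of all genes were lower in the main fit and 26.1% with 22Rv1 arrays only. For scramble against control, 12.5% and 23.8% were higher. Shares under the other alternatives are not given, so the counts below are not read as above or below them. For shRNA against scramble, the genes lower were 1 with probe sets averaged, 1 with the floor, 14 with array weights, 13 with compared arrays only, 12 with 22Rv1 arrays only and 0 to 1 leaving out 1 array, and the genes higher 13, 9, 8 and 2 to 4 under the last 4. For scramble against control, those higher were 5 with probe sets averaged, 1 after centring, 1 after a second quantile normalization, 9 with the floor, 24 with weights, 22 with compared arrays, 22 with 22Rv1 arrays and 1 to 4 leaving out 1 array, and those lower 7 with weights, 4 with compared arrays and 2 to 3 leaving out 1. For shRNA against control, those lower were 1 with probe sets averaged, 2 with weights, 1 with compared arrays and 2 with 22Rv1 arrays, and those higher 2 with the floor, 16 with weights, 12 with compared arrays, 9 with 22Rv1 arrays and 0 to 1 leaving out 1. For LNCaP against 22Rv1 control, those higher were 7 with probe sets averaged, 7 with the floor, 11 with weights, 13 with compared arrays and 3 to 4 leaving out 1, and those lower 26 with weights and 29 with compared arrays. The cause was not tested. The fit of 22Rv1 arrays only was added after seeing the data.

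Signs turned for PLK1 (0.67) and TACC3 (0.10) in the line difference with the floor. With probe sets averaged they turned for TOP2A (-0.63) and ASPM (-1.20) in scramble against control, ASPM (-0.82) in shRNA against control, and AURKA (0.27) in LNCaP against 22Rv1 control. With the replicate block, pairing arrays by number, 1 gene was lower for shRNA against scramble, all 56 were lower in both overexpression comparisons and 54 in the line difference. Signal near 4 limits the falls in LNCaP.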
